A study of Mus musculus with 9 samples.

Results

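Hippocampal RNA of hAPP-J20 mice at 24 weeks, the stage after amyloid plaques have formed, was compared with that of non-transgenic mice. hAPP-J20 mice carry a mutant human amyloid precursor protein transgene driven by a platelet-derived growth factor B promoter, which is active mainly in neurons. The comparison holds 6 of the 9 RNA sequencing libraries of the series. The Tg_24w group is hAPP-J20 at 24 weeks (3 libraries), and the nTg group is labelled WT and pools 2 libraries at 24 weeks (nTg_24w_1 and nTg_24w_3) with 1 at 15 weeks (nTg_15w_2). The other 3 libraries, hAPP-J20 at 15 weeks before plaques (Tg_15w), entered the same fit and are given beside the others. The labels name no treatment and give neither strain background nor sex. They call the libraries biological replicates without saying that each is a separate animal, so p reflects variation among these libraries, some of which may be technical. Their batch label equals age, so batch and age cannot be told apart. Because 1 nTg library is younger than the Tg_24w group, values within 24 weeks are given where they bear on a result.

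In the hippocampus, granule cells of the dentate gyrus receive the main cortical input and pass it on through mossy fibres, which contain opioid peptides. Neuronal firing raises calcium and the ERK kinase cascade in the cell, and these switch on immediate early genes such as Fos, Arc and Egr1 within minutes. Mice that overproduce amyloid peptides are known for epileptiform activity and for long-lasting changes of such genes in granule cells, and plaques are known to draw reactive astrocytes and microglia that express complement and lysosomal genes.

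Total counts were 20201207, 19277883 and 12733452 in the Tg_24w libraries, 17444752 to 21529266 in Tg_15w, and 16089966 to 20126802 in nTg. Tg_24w_3 was the shallowest library and stood apart from all others, with a first principal component score (37.1% of the variance) of 84.6 against −30.9 to 4.87 elsewhere. Values of the called genes and of most lists are therefore also given without it. In that library with genes sorted into 5 equal bins of exon length, the median gene of the shortest bin lay 0.34 above the median of the other libraries on the log2 scale, and that of the longest bin 0.20 below. The comparison of Tg_24w with nTg also followed length. Its median log2 fold change was 0.21 in the shortest bin and −0.14 in the longest, and 0.06 and −0.11 without Tg_24w_3. The summed level of 5 blood genes, such as haemoglobins, was 145 to 786 CPM (counts scaled to library size, TMM-normalised) in Tg_24w and 168 to 312 CPM in nTg, highest in Tg_24w_3. Choroid plexus genes summed to 1929 to 6814 CPM in Tg_24w and 5207 to 6994 CPM in nTg, lowest in Tg_24w_2. Summed CA1 and CA3 pyramidal markers lay at 1026 to 1182 CPM in Tg_24w and 1001 to 1056 CPM in nTg, and none of the 17 was at 0 in any library. Tg_24w_3 and nTg_24w_3 held Xist RNA at 83.1 and 65.3 CPM with Ddx3y at 0, whereas the other 4 of these 6 libraries held Ddx3y. nTg_24w_1 held Xist at 7.34 CPM together with Ddx3y at 39.0 CPM. The part of length, blood, choroid plexus and sex-linked genes in the results below was not tested, except by the alternatives named.

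**Figure D1:**
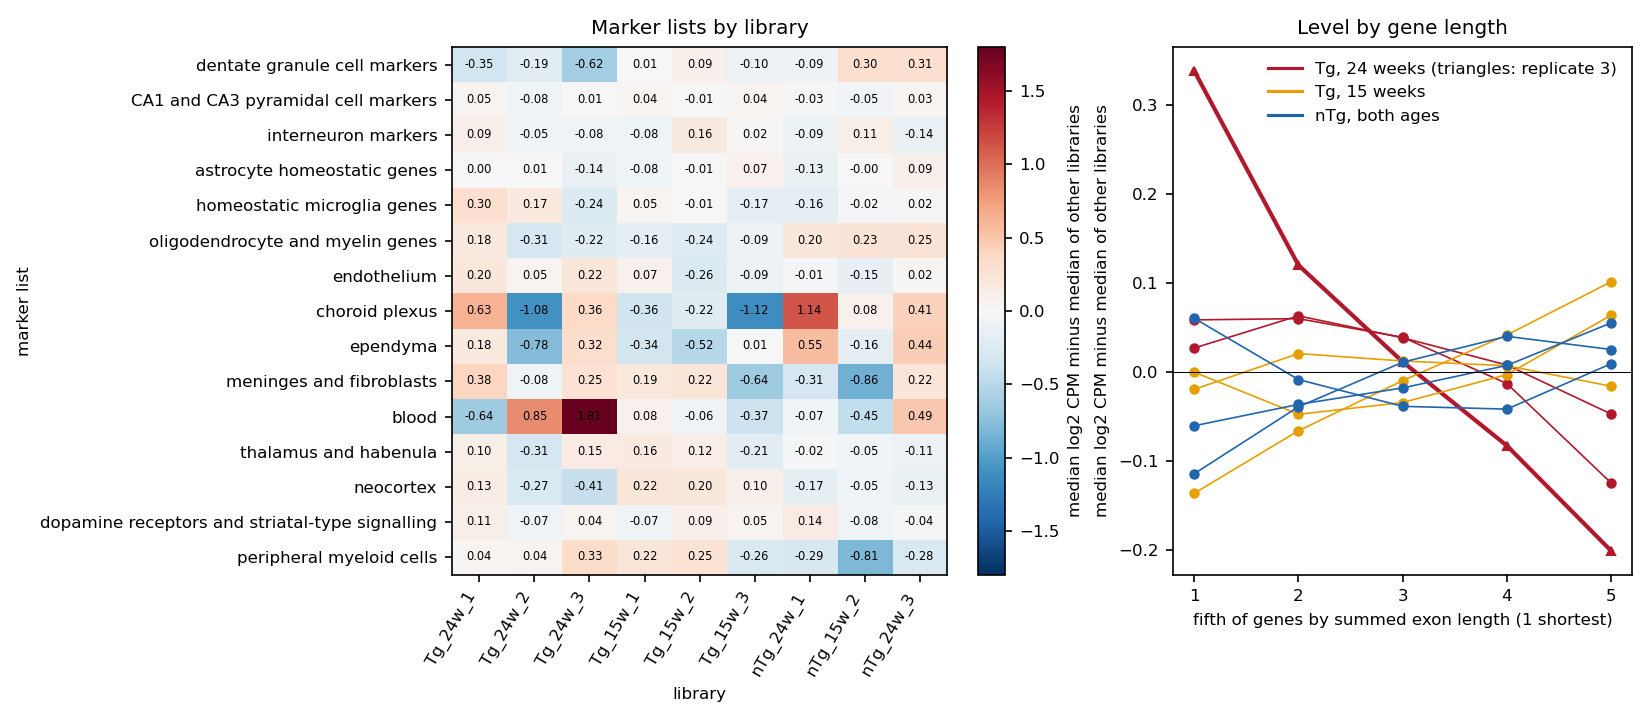
Left, the median log2 CPM of each marker list (rows) in each library (columns) minus the median of the other libraries, with the value printed in each cell. Right, the same difference for genes in 5 bins of summed exon length, 1 line per library: Tg_24w_3 (triangles) runs from 0.34 in the shortest bin to −0.20 in the longest, while the other libraries stay nearer 0.

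The mouse App gene did not separate the groups. Its level was 1542, 1460 and 804 CPM in the Tg_24w libraries, against 1023, 1501 and 1452 CPM in nTg_24w_1, nTg_15w_2 and nTg_24w_3. The lowest value belonged to Tg_24w_3 and the next lowest to nTg_24w_1, so the groups overlapped. How reads of the human transgene were counted is not given in the sources used here, so this level does not check the genotype. Zbtb20 (16:42875881-43642602), a transcription factor gene in which the J20 transgene is known to lie, is described with the results that turn on Tg_24w_3.

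Of 17457 genes tested, 23 (0.132%) differed between Tg_24w and nTg at an adjusted p under 0.05 (edgeR quasi-likelihood, Benjamini-Hochberg adjusted over all genes). Of these, 9 (0.0516%) were higher in Tg_24w, led by the opioid peptide precursor Penk, and 14 (0.0802%) were lower, among them Fos, Arc, Egr1 and Nr4a1 and the dentate granule cell genes Dsp and Tdo2. An unadjusted p under 0.05 was reached by 2273 genes. All 23 had no overlap between their 3 Tg_24w and 3 nTg levels, as 16.9% of all genes tested did. Without Tg_24w_3, 36 of 17795 genes (0.202%) passed, 16 higher (0.0899%) and 20 lower (0.112%), and they included 22 of the 23 in the same direction. Fam160a1 was the gene lost, with an adjusted p of 0.0518. The 24-week libraries taken alone, 3 against 2, gave no gene past the threshold and 670 at an unadjusted p under 0.05 in edgeR. All 23 genes kept their direction there, which their lack of overlap made nearly certain, with adjusted p-values of 0.0662 to 0.913. There the log2 fold change was 2.48 for Penk, −2.31 for Fos and −2.11 for Dsp, and those of the full comparison are given below. Leaving out nTg_24w_1, nTg_15w_2 or nTg_24w_3 left 7, 4 or 6 calls, and leaving out Tg_24w_1 or Tg_24w_2 left 11 or 16. Penk, Rprm, Fos and Dsp passed in each of the 6 fits that left out 1 of these libraries.

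**Figure D2:**
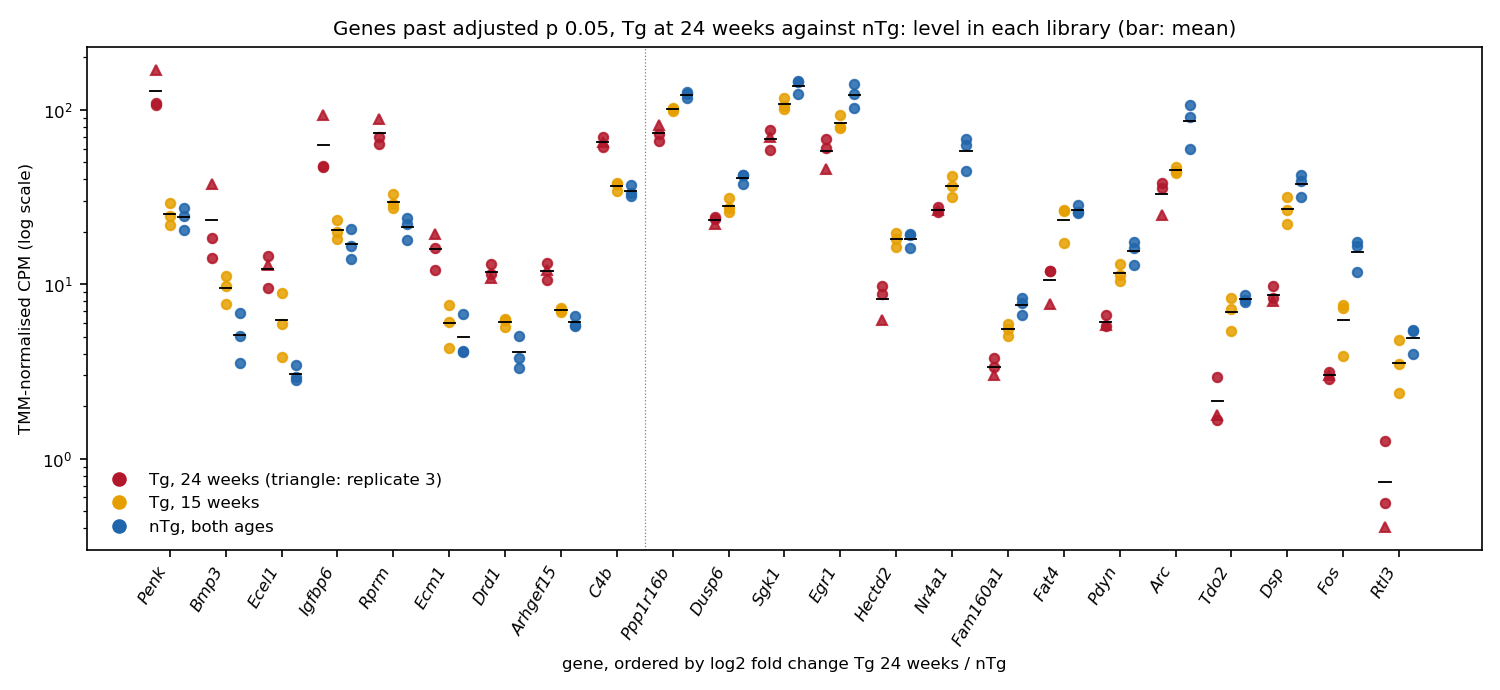
TMM-normalised CPM (log axis) of the 23 genes past an adjusted p of 0.05 in Tg at 24 weeks (red, triangle for replicate 3), Tg at 15 weeks (yellow) and nTg (blue), 1 point per library with a bar at the mean. For each gene the 3 red points lie on 1 side of the 3 blue points, and the 9 genes left of the dotted line are the higher ones.

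Among the called genes are immediate early genes whose promoters respond to calcium and ERK signals. The 250 bases before and 50 bases after the start of Fos, Nr4a1 and Dusp6 are shown because these genes fell together and because CREB, a factor that calcium signals activate, binds the short motif TGACG that the Fos and Nr4a1 windows hold. They come from RefSeq on build GRCm38.p6, plus strand, at chr12:85473640-85473939, chr15:101266596-101266895 and chr10:99262981-99263280. Capitals mark TGACG on either strand (CGTCA on the strand shown).

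Fos: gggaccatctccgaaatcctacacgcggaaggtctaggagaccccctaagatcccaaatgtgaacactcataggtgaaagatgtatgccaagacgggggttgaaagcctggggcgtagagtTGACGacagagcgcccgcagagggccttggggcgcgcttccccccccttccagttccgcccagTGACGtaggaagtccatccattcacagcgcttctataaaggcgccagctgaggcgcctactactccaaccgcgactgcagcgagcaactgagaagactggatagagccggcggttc
Nr4a1: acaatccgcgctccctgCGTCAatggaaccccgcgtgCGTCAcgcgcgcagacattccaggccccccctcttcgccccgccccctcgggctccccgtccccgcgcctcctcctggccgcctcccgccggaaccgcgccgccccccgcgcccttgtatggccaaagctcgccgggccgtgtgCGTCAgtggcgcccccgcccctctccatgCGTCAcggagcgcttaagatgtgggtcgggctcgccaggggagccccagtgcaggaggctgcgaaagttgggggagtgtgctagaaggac
Dusp6: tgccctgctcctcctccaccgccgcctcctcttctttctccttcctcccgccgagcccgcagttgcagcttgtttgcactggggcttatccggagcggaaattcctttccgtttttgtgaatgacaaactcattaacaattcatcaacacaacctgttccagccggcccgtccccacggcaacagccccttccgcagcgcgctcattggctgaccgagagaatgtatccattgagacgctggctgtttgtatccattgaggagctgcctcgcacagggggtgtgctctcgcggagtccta

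The TGACG motif occurs 2 times in the Fos window, 4 times in that of Nr4a1 and not in that of Dusp6. It is common, since 20.8% of the 32851 RefSeq promoters of this length hold it. Counted by gene, 4 of the 11 lower genes with a promoter in the table held it (36.4%; Fos, Nr4a1, Ppp1r16b and Sgk1), none of 5 higher genes did, and 33.4% of all tested genes did. Among these 11 lower and 5 higher genes, neither the full element TGACGTCA nor the CArG box was found in the windows searched. They were present in 1.79% and 1.63% of promoters, and in 3.39% and 1.65% of tested genes with a promoter. The AP-1 site TGANTCA, in 7.81% of promoters and 6.31% of such genes, was found for Ecm1. The other called genes, and sequence outside these windows, were not searched. Each motif was searched on both strands, and TGACG lies within TGACGTCA.

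Of 16 activity-regulated transcription factors tested, 3 passed the threshold, Fos, Nr4a1 and Egr1, all lower in Tg_24w (0.0802% of all genes tested were called lower). A positive log2 fold change was found in 2 of the 16, against 53.3% of all genes tested, and the median was −0.59 against 0.03 over all genes. Without Tg_24w_3 the median was −0.58. Fos (12:85473890-85477273), a subunit of the AP-1 transcription factor, had 3.13, 2.88 and 3.01 CPM in the Tg_24w libraries, against 17.5, 16.5 and 11.8 CPM in nTg_24w_1, nTg_15w_2 and nTg_24w_3. The 3 Tg_24w levels lay within a narrow band far below the lowest nTg level. The log2 fold change was −2.34 ± 0.26 (SE; adjusted p = 0.00455, edgeR), a level 5.07 times lower, and −2.35 without Tg_24w_3. Tg_15w lay in between, with 7.28, 3.86 and 7.63 CPM, and Tg_24w did not pass the threshold against Tg_15w (log2 difference −1.06, adjusted p = 0.215).

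Nr4a1 (15:101254269-101274795), an orphan nuclear receptor, had 25.8, 27.6 and 26.6 CPM in Tg_24w and 68.0, 62.8 and 44.4 CPM in nTg. Its log2 fold change was −1.13 ± 0.17 (adjusted p = 0.0265), and −1.13 without Tg_24w_3. Egr1 (18:34859823-34864984), a zinc finger factor, had 68.5, 60.2 and 45.5 CPM in Tg_24w and 141, 123 and 102 CPM in nTg, a log2 fold change of −1.07 ± 0.17 (adjusted p = 0.0358) and of −0.93 without Tg_24w_3. In both genes every Tg_24w level lay below every nTg level, and nTg_24w_3 was the lowest control, as it was for Fos. Other members did not pass. Egr2, a relative of Egr1, had 0.202, 0.314 and 0.325 CPM in Tg_24w and 3.33, 1.84 and 1.04 CPM in nTg (log2 fold change −2.87 ± 0.53, adjusted p = 0.0646, and −2.98 without Tg_24w_3). Npas4, a factor of inhibitory synapse formation, had a log2 fold change of −1.25 ± 0.26 (adjusted p = 0.123), and Egr4 one of −1.0 ± 0.20 (adjusted p = 0.105).

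Of 16 activity-regulated effector genes, 1 passed, lower (0.0802% of all genes tested). Their median log2 fold change was −0.20, −0.30 without Tg_24w_3 and −0.12 with an offset for transcript length and GC content. The called member was Arc (15:74669083-74672570), which promotes removal of AMPA receptors from synapses. Arc had 35.7, 38.0 and 24.9 CPM in Tg_24w, against 107, 90.5 and 59.9 CPM in nTg, where nTg_24w_3 was again lowest, and the groups did not overlap. This gave a log2 fold change of −1.38 ± 0.21 (adjusted p = 0.0265), and −1.22 without Tg_24w_3. The Tg_15w libraries held 44.5, 43.5 and 47.0 CPM of Arc. Other members of the effector list included Homer1, a synaptic scaffold, at −0.23 (adjusted p = 0.649; −0.54 without Tg_24w_3), and Btg2, an antiproliferative gene, at −0.71 (adjusted p = 0.210).

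Feedback inhibitors of the ERK pathway, which ERK itself induces, gave 1 lower call among 10 tested (0.0802% of all genes tested), and 1 of the 10 had a positive log2 fold change, against 53.3% of all genes. The median was −0.45, and −0.31 without Tg_24w_3. Dusp6 (10:99263231-99267489), the cytoplasmic phosphatase that inactivates ERK, had 23.5, 24.2 and 22.1 CPM in Tg_24w and 42.5, 42.0 and 37.6 CPM in nTg. Both groups were tight and did not overlap, with a log2 fold change of −0.81 ± 0.13 (adjusted p = 0.0370), and −0.78 without Tg_24w_3. Spry4, an inhibitor of receptor tyrosine kinase signalling, had 5.0, 5.39 and 3.25 CPM in Tg_24w and 12.8, 10.6 and 8.76 CPM in nTg (log2 fold change −1.22, adjusted p = 0.0598). Its relative Spry2 was the positive member, at 0.66 (adjusted p = 0.303). Sgk1 (10:21882184-21999903), a kinase induced by glucocorticoids and by depolarisation and in none of these 3 lists, fell to 76.2, 59.0 and 69.8 CPM in Tg_24w, against 123, 144 and 146 CPM in nTg. Its log2 fold change was −1.01 ± 0.14 (adjusted p = 0.0144), and −1.03 without Tg_24w_3.

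The 2 opioid peptide precursors changed in opposite directions. Penk (4:4133531-4138819), which encodes proenkephalin, had 110, 107 and 170 CPM in Tg_24w, against 20.4, 27.3 and 24.7 CPM in nTg. The lowest Tg_24w library held several times the highest nTg library, and Tg_24w_3 was the highest of all. The log2 fold change was 2.41 ± 0.20 (adjusted p = 0.000386), a level 5.32 times higher, and 2.16 (adjusted p = 1.24e-05) without Tg_24w_3. The Tg_15w libraries, at 24.6, 21.9 and 29.3 CPM, lay near the nTg levels, with Tg_15w_3 slightly above the highest of them. Penk overlaps A830012C17Rik on the other strand, and the strand setting of the counting is not given in the sources used here. Per unit of gene length, Penk had the highest mean level in Tg_24w of the 23 called genes, 159 TPM (a level scaled by gene length) against 32.7 TPM in nTg.

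Pdyn (2:129686565-129699844), which encodes prodynorphin, the opioid precursor of mossy fibres, had 6.62, 5.75 and 5.86 CPM in Tg_24w, against 12.8, 16.1 and 17.5 CPM in nTg. Every Tg_24w level lay at about the same value below the lowest nTg level. This gave a log2 fold change of −1.35 ± 0.17 (adjusted p = 0.0124), and −1.33 without Tg_24w_3. Penk and Pdyn were the 2 calls among 13 neuropeptides and calcium binders that respond to seizures (0.132% of all genes tested were called), whose median was 0.20, 0.03 without Tg_24w_3 and 0.001 with the offset for length and GC content. Gal, the precursor of galanin, had 0.708, 1.88 and 6.75 CPM in Tg_24w and 0.308, 0.447 and 0.184 CPM in nTg, and its log2 fold change of 3.22 ± 0.75 (adjusted p = 0.158) dropped to 1.99 without Tg_24w_3. Npy, the precursor of neuropeptide Y, had 69.6, 81.9 and 183 CPM in Tg_24w and 54.1, 83.9 and 75.9 CPM in nTg, so that Tg_24w_3 alone exceeded the controls. Calb1, the calcium buffer calbindin of granule cells, had 113, 99.3 and 143 CPM in Tg_24w and 126, 161 and 147 CPM in nTg (adjusted p = 0.484). Calb2, which encodes calretinin, had 57.1, 57.9 and 59.0 CPM in Tg_24w and 39.9, 39.1 and 40.1 CPM in nTg, without overlap. Its log2 fold change was 0.55 ± 0.13 (adjusted p = 0.180, edgeR), and 0.53 without Tg_24w_3. DESeq2 called Calb2 (adjusted p = 0.0459).

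Of 18 markers of dentate granule cells tested, Dsp and Tdo2 passed, both lower in Tg_24w (0.0802% of all genes tested). A positive log2 fold change was found in 4 of the 18, against 53.3% of all genes, and the median was −0.55. Without Tg_24w_3 the median was −0.43 and 3 members passed, all lower. The summed level of the 18 was 692 to 980 CPM in Tg_24w and 985 to 1198 CPM in nTg. These groups nearly met, at 980 CPM in Tg_24w_2 and 985 CPM in nTg_24w_1, and the lowest sum was that of Tg_24w_3. In bulk RNA, fewer cells of a type and less RNA per cell cannot be told apart. Dsp (13:38151294-38198577), which encodes desmoplakin, a protein of cell junctions, had 8.39, 9.73 and 8.06 CPM in Tg_24w, against 31.5, 38.9 and 42.2 CPM in nTg. Its log2 fold change was −2.10 ± 0.18 (adjusted p = 0.000386), a level 4.29 times lower, and −2.06 without Tg_24w_3. Dsp had 26.8, 22.1 and 31.7 CPM in Tg_15w, and it overlaps Gm10129.

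Tdo2 (3:81957090-81976202), which encodes tryptophan dioxygenase, the first enzyme of the kynurenine pathway, had 1.67, 2.93 and 1.79 CPM in Tg_24w, against 8.08, 7.90 and 8.64 CPM in nTg. The log2 fold change was −1.93 ± 0.26 (adjusted p = 0.0124), and −1.84 without Tg_24w_3. Prox1, the transcription factor that sets granule cell identity, had 41.7, 55.1 and 37.1 CPM in Tg_24w and 74.1, 81.0 and 79.0 CPM in nTg, without overlap but just short of the threshold (log2 fold change −0.80 ± 0.15, adjusted p = 0.0646, and −0.69 without Tg_24w_3). C1ql2, a secreted synapse organiser of mossy fibres, was on the other side, with 137, 157 and 95 CPM in Tg_24w and 78.6, 96.6 and 94.1 CPM in nTg (log2 fold change 0.53 ± 0.18, adjusted p = 0.309, and 0.71 without Tg_24w_3). Neither CA1 and CA3 pyramidal markers (17 tested, median −0.10, and −0.04 without Tg_24w_3) nor interneuron markers (15 tested, median 0.03, and 0.04 without Tg_24w_3) had a called member in either direction. The CA1 and CA3 median was −0.18 without Tg_24w_1 and −0.23 with an offset for transcript length and GC content.

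Rprm and Drd1 were among the higher genes. Rprm (2:54084093-54085552), which encodes reprimo, a target of p53 that arrests the cell cycle, had 63.5, 70.0 and 88.8 CPM in Tg_24w, against 17.8, 22.2 and 23.9 CPM in nTg. This gave a log2 fold change of 1.8 ± 0.17 (adjusted p = 0.000677), and 1.64 without Tg_24w_3. Drd1 (13:54051183-54055705), which encodes the D1 dopamine receptor, had 11.4, 13.1 and 10.9 CPM in Tg_24w, against 5.05, 3.33 and 3.80 CPM in nTg, with a log2 fold change of 1.54 ± 0.20 (adjusted p = 0.0120), and 1.59 without Tg_24w_3. For both, the lowest Tg_24w library lay well above the highest nTg library. The Tg_15w libraries held 32.9, 28.9 and 27.3 CPM of Rprm and 5.67, 6.35 and 6.23 CPM of Drd1, also above every nTg level. The other 10 tested members of the list of dopamine receptors and striatal signalling genes were not called. Among them Ppp1r1b, the dopamine-regulated phosphatase inhibitor, was at 0.55 (adjusted p = 0.430; 0.01 without Tg_24w_3), and Pde10a, a striatal phosphodiesterase, was at −0.64 (adjusted p = 0.329). The list's summed level was 324 to 431 CPM in Tg_24w and 327 to 387 CPM in nTg.

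Glutamate receptor and ion channel genes had no call in edgeR. DESeq2 called Kcnq3 (adjusted p = 0.00559), Grin2a (adjusted p = 0.0464) and Ryr1, of the calcium list (adjusted p = 0.0486). It did not call Kcnip3, which is in the potassium channel list and encodes a channel-interacting protein (adjusted p = 0.0510). The Ryr1 levels overlapped between groups, and its log2 fold change was −1.09. The medians were −0.10 for 15 AMPA, NMDA and kainate receptor subunits, −0.17 for 19 potassium channels and −0.19 for 21 genes of calcium channels, stores and kinases. Of these lists, 11, 16 and 17 members had a negative log2 fold change, where 53.3% of all genes tested had a positive one. Grin2a, an NMDA receptor subunit, was at −0.50 ± 0.15 (adjusted p = 0.264). Kcnq3, a subunit of the M-current channel, was at −0.64 ± 0.14 (adjusted p = 0.154). The median of the glutamate receptor subunits was −0.23 without nTg_24w_1 and turned positive, to 0.02, with the offset for length and GC content.

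**Figure D3:**
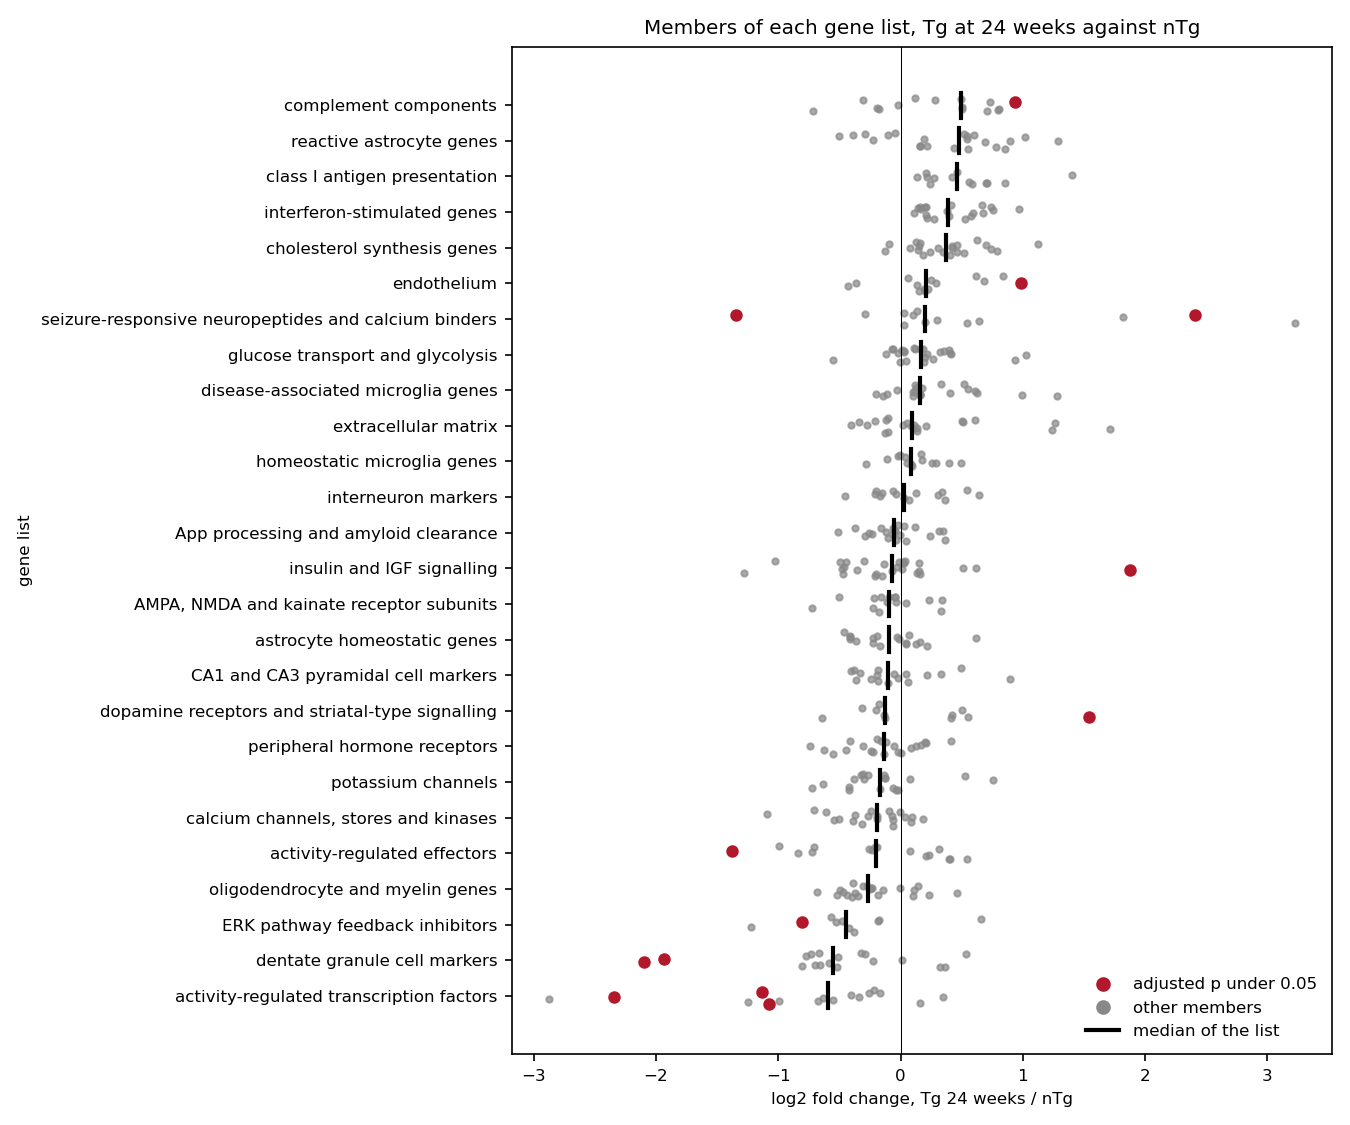
Log2 fold change of each tested member of 26 gene lists in Tg at 24 weeks against nTg (x axis), 1 point per gene, red where the adjusted p was under 0.05, with a black bar at the list's median. The lowest median is that of activity-regulated transcription factors, at −0.59, and the highest that of complement components, at 0.49.

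Complement components had 1 call among 15 tested, higher (background 0.0516%), and 10 had a positive log2 fold change (53.3% of all genes tested). C4b (17:34728380-34743882), the complement component that follows C1q in the classical cascade, had 61.4, 70.1 and 65.1 CPM in Tg_24w, against 32.2, 33.4 and 37.3 CPM in nTg. The 2 sets were tight and well apart, with a log2 fold change of 0.93 ± 0.12 (adjusted p = 0.0124) that was also 0.93 without Tg_24w_3. Tg_15w lay beside nTg, at 37.8, 38.2 and 34.2 CPM. C4b has a near-identical copy, C4a, so reads may have been split between them. The microglial C1q chains were at 0.73 ± 0.19 (C1qa, adjusted p = 0.238), 0.51 ± 0.16 (C1qb) and 0.49 ± 0.14 (C1qc). The list's median was 0.49, 0.33 without Tg_24w_3 and 0.21 with the offset for length and GC content.

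No member of the reactive astrocyte and microglia lists passed in edgeR, where C4b was counted with complement and not in these lists. DESeq2 called Gfap (adjusted p = 0.0122) and Gpnmb (adjusted p = 0.00179), but not Serpina3n (adjusted p = 0.206) or Trem2 (adjusted p = 0.130). The median of 22 reactive astrocyte genes was 0.48, and 0.24 without Tg_24w_3. Gfap, the intermediate filament of astrocytes, had 486, 622 and 739 CPM in Tg_24w and 451, 285 and 254 CPM in nTg, where nTg_24w_1 came near the lowest Tg_24w library. Its log2 fold change was 0.90 ± 0.21 (adjusted p = 0.169), and its Tg_15w levels were 284, 322 and 302 CPM. Serpina3n, a protease inhibitor of reactive astrocytes, was at 0.54 ± 0.18 (adjusted p = 0.303). The 18 homeostatic astrocyte genes had a median of −0.10, and −0.01 without Tg_24w_3.

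Of the 21 disease-associated microglia genes tested, 17 were positive (53.3% of all genes tested). Their median was 0.16, which was 0.20 without Tg_24w_3, 0.30 without Tg_24w_2 and 0.03 with the offset for length and GC content. Gpnmb, a lysosomal membrane glycoprotein, had 10.7, 14.2 and 20.2 CPM in Tg_24w and 5.49, 5.86 and 7.17 CPM in nTg, without overlap (log2 fold change 1.28 ± 0.26, adjusted p = 0.105, and 1.01 without Tg_24w_3). Trem2, the lipid receptor of microglia, was at 0.61 ± 0.18 (adjusted p = 0.262). Cst7, a cathepsin inhibitor, had 1.31, 1.31 and 0.244 CPM in Tg_24w and 0.185, 0.0994 and 0.306 CPM in nTg. It did not pass the filter on low counts with all libraries. Without Tg_24w_3 it passed that filter only through Tg_24w_1 and Tg_24w_2, where it was high. Its log2 fold change there, 2.72 (adjusted p = 0.108), follows from that selection and is not evidence of a difference. The homeostatic microglia markers, with 14 tested, had a median of 0.09, 0.22 without Tg_24w_3 and 0.03 with that offset, and their summed level was 313 to 484 CPM in Tg_24w and 367 to 425 CPM in nTg.

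Genes of class I antigen presentation and interferon-stimulated genes were nearly all on the positive side without a call in edgeR. Among class I genes DESeq2 called Psmb9 (adjusted p = 0.0343), H2-K1 (adjusted p = 0.0285), Psmb10 (adjusted p = 0.0212) and H2-D1 (adjusted p = 0.0370). It did not call H2-T23 (adjusted p = 0.191) or Psme2 (adjusted p = 0.326). All 13 tested class I genes had a positive log2 fold change, where 53.3% of all genes tested did, with a median of 0.46. Without Tg_24w_3, 12 of 14 were positive and the median was 0.41. Psmb9, a subunit of the immunoproteasome that overlaps Tap1, had 2.68, 3.40 and 3.25 CPM in Tg_24w and 1.48, 0.944 and 1.10 CPM in nTg (log2 fold change 1.40 ± 0.33, adjusted p = 0.157). H2-K1, a class I heavy chain of a family of similar copies, was at 0.56 ± 0.13 (adjusted p = 0.164). All 20 interferon-stimulated genes tested were positive with a median of 0.39. Without Tg_24w_3 that count was 17 and the median 0.23. Summed peripheral myeloid markers were 21.6 to 31.8 CPM in Tg_24w and 12.9 to 21.3 CPM in nTg. Their part in these values was not tested.

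The series' title concerns insulin and signals between brain and periphery, and insulin and IGF signalling gave 1 call among 27 tested, higher (0.0516% of all genes tested). Igfbp6 (15:102144362-102149511), a secreted binding protein with preference for IGF-II, had 47.4, 47.3 and 93.5 CPM in Tg_24w, against 14.0, 16.6 and 20.7 CPM in nTg. Tg_24w_3 held about as much as the other 2 Tg_24w libraries together. The log2 fold change was 1.87 ± 0.26 (adjusted p = 0.0148), and 1.46 (adjusted p = 0.00189) without Tg_24w_3. The receptor gene Insr was at −0.47 ± 0.13 (adjusted p = 0.248; −0.42 without Tg_24w_3), with 34.6, 33.0 and 30.4 CPM in Tg_24w and 41.1, 49.8 and 44.7 CPM in nTg. Irs2, the adaptor that links the receptor to PI3 kinase, was at −0.48 ± 0.12 (adjusted p = 0.217). The list's median was −0.07, also without Tg_24w_3, and −0.03 with the offset.

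None of 21 peripheral hormone receptors passed (median −0.13, and −0.25 without Tg_24w_2). Adipor2, a receptor for adiponectin, was at −0.55 ± 0.13 (adjusted p = 0.170). Of 26 genes of glucose transport and glycolysis, 20 were positive (53.3% of all genes tested) and none passed. Their median of 0.17 ran from 0.09 without Tg_24w_2 to 0.23 without Tg_24w_3. Slc2a4, the insulin-regulated glucose transporter, had 3.39, 2.67 and 2.93 CPM in Tg_24w and 1.79, 1.34 and 1.29 CPM in nTg (adjusted p = 0.248). Cholesterol synthesis genes were positive in 20 of 22, also without a call, with a median of 0.37, and 0.30 without Tg_24w_3. Fdft1, squalene synthase, had 130, 183 and 191 CPM in Tg_24w and 102, 108 and 102 CPM in nTg (log2 fold change 0.69 ± 0.15, adjusted p = 0.139), and it overlaps Ctsb.

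Of the remaining lists, App processing and amyloid clearance genes had no call among 22 and a median of −0.05, which was 0.06 without Tg_24w_3. The lipid transporter Abca1 was at −0.51 (adjusted p = 0.337) and the sorting receptor Sorl1 at −0.38 (adjusted p = 0.351). Oligodendrocyte and myelin genes were negative in 17 of 22, where 53.3% of all genes tested were positive. Their median was −0.26, and −0.45 without Tg_24w_1, and none passed. Their summed level was 4680 to 5957 CPM in Tg_24w and 6143 to 7164 CPM in nTg. Pdgfra, the receptor of oligodendrocyte precursors, was at −0.52 ± 0.15 (adjusted p = 0.249).

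The remaining higher calls were Arhgef15, Bmp3, Ecel1 and Ecm1. Arhgef15 (11:68943155-68957480), an activator of RhoA found in endothelium and neurons, was the 1 call among 14 endothelial genes (0.0516% of all genes tested), with 10.6, 13.2 and 12 CPM in Tg_24w and 5.73, 6.56 and 5.82 CPM in nTg. Its log2 fold change was 0.98 ± 0.16 (adjusted p = 0.0414), and 0.97 without Tg_24w_3. The endothelial median was 0.21, and 0.09 in the 24-week libraries alone. Bmp3 (5:98854415-98884396), a ligand of the bone morphogenetic protein family, had 14.2, 18.4 and 37.4 CPM in Tg_24w and 3.51, 6.81 and 5.03 CPM in nTg, again highest in Tg_24w_3. Its log2 fold change was 2.17 ± 0.35 (adjusted p = 0.0358), and 1.65 without Tg_24w_3. Ecel1 (1:87147655-87156521), a membrane peptidase induced in injured neurons, had 9.45, 14.5 and 12.9 CPM in Tg_24w and 2.84, 2.93 and 3.43 CPM in nTg (log2 fold change 2.0 ± 0.29, adjusted p = 0.0235, and 1.96 without Tg_24w_3). Ecm1 (3:95734147-95739569), a secreted matrix protein, was at 1.68 ± 0.27 (adjusted p = 0.0367), and 1.5 without Tg_24w_3. In Tg_15w, Bmp3 had 11.1, 9.78 and 7.68 CPM and Ecel1 5.90, 3.81 and 8.94 CPM, above every nTg level. Ecm1 had 6.07, 7.56 and 4.29 CPM there, which overlapped nTg.

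Of 22 extracellular matrix genes none passed with all libraries, and Col6a1 passed without Tg_24w_3. The fibrillar collagens Col1a1 and Col3a1 were at 1.264 ± 0.26 (adjusted p = 0.108) and 1.71 ± 0.36 (adjusted p = 0.123). Summed meningeal and fibroblast markers were 908 to 1436 CPM in Tg_24w and 653 to 1562 CPM in nTg, so they overlapped, and their part was not tested.

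The other 5 lower genes were Rtl3, Fat4, Fam160a1, Hectd2 and Ppp1r16b. Rtl3 (X:106837082-106840644), a gene derived from a retrotransposon Gag, had the most negative log2 fold change of the 23 at −2.68 ± 0.40 (adjusted p = 0.0265) and the lowest Tg_24w levels. It had 0.556, 1.255 and 0.407 CPM in Tg_24w against 5.36, 3.97 and 5.45 CPM in nTg, and its log2 fold change without Tg_24w_3 was −2.44. Fat4 (3:38886940-39011985), an atypical cadherin, had 11.9, 12 and 7.73 CPM in Tg_24w and 25.8, 28.5 and 25.7 CPM in nTg (log2 fold change −1.33 ± 0.21, adjusted p = 0.0331, and −1.16 without Tg_24w_3), and it overlaps C230034O21Rik and Gm43539. Fam160a1 (3:85660061-85817291) had 3.34, 3.77 and 3.01 CPM in Tg_24w and 8.38, 6.66 and 7.84 CPM in nTg (log2 fold change −1.17 ± 0.19, adjusted p = 0.0414), and it passed in none of the 6 fits that left out 1 library. Fam160a1 overlaps Gm37240, and Ppp1r16b and Ecm1 overlap the small genes Gm26141 and Mir7014. Hectd2 (19:36554639-36621135), a ubiquitin ligase that overlaps Hectd2os, fell by 1.13 on the log2 scale (adjusted p = 0.0358), and by 0.98 without Tg_24w_3. Ppp1r16b (2:158665398-158766334), a regulatory subunit of protein phosphatase, fell by 0.73 (adjusted p = 0.0414), and by 0.82 without Tg_24w_3, with 72.6, 66.1 and 82.3 CPM in Tg_24w and 117, 123 and 126 CPM in nTg. With the offset for length and GC content 20 of the 23 genes remained called, and Ecm1, Hectd2 and Ppp1r16b did not.

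Leaving out Tg_24w_3 brought 14 further genes past the threshold. Among those named here Zbtb20 moved most, with 138 and 142 CPM in Tg_24w_1 and Tg_24w_2 but 515 CPM in Tg_24w_3, against 245, 338 and 340 CPM in nTg. Tg_24w_3 was the highest and the other 2 the lowest of these 6 libraries. This gave a log2 fold change of −0.22 ± 0.40 (adjusted p = 0.844) with all libraries and −1.15 (adjusted p = 0.00871) without Tg_24w_3. The 3 Tg_15w libraries had 205, 203 and 162 CPM of Zbtb20, a gene that overlaps several others on both strands. Adcy1 (11:7063489-7178506), the adenylyl cyclase that calcium and calmodulin stimulate, had 237, 266 and 350 CPM in Tg_24w, against 586, 518 and 513 CPM in nTg. It did not overlap between groups, with a log2 fold change of −0.92 ± 0.17 (adjusted p = 0.0581) with all libraries and −1.11 (adjusted p = 0.00392) without Tg_24w_3.

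Among the rest, Npnt, a matrix ligand of integrins, and Dgkh, a diacylglycerol kinase, were at −1.02 and −0.99 without Tg_24w_3 (adjusted p = 0.0207 for both) and at −0.78 and −0.85 with it. Higher without Tg_24w_3 were Arhgap36, a regulator of protein kinase A (2.79), the collagen chain Col6a1 (1.48), the lymphatic growth factor Vegfd (1.47), the calcium-binding protein Necab3 (1.05), the proteoglycan Dcn (0.93) and the matrix protein Vwa1 (0.87), on the log2 scale. Of these genes Necab3, Vwa1, Npnt and Dgkh overlap others on the opposite strand, as do Prox1, Spry4, Gfap, Insr and Irs2. Arhgap36 had 2.93, 7.11 and 1.46 CPM in Tg_24w and 0.616, 0.894 and 0.613 CPM in nTg. Col6a1 had 38.4, 50.7 and 22.9 CPM in Tg_24w and 14.4, 11.2 and 22.2 CPM in nTg. In Tg_15w, Vegfd had 6.02, 8.30 and 8.71 CPM and Dcn 128, 128 and 91.8 CPM, above every nTg level of the same gene. Col6a1 had 23.8, 14.9 and 17.4 CPM in Tg_15w, which overlapped nTg.

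**Figure D4:**
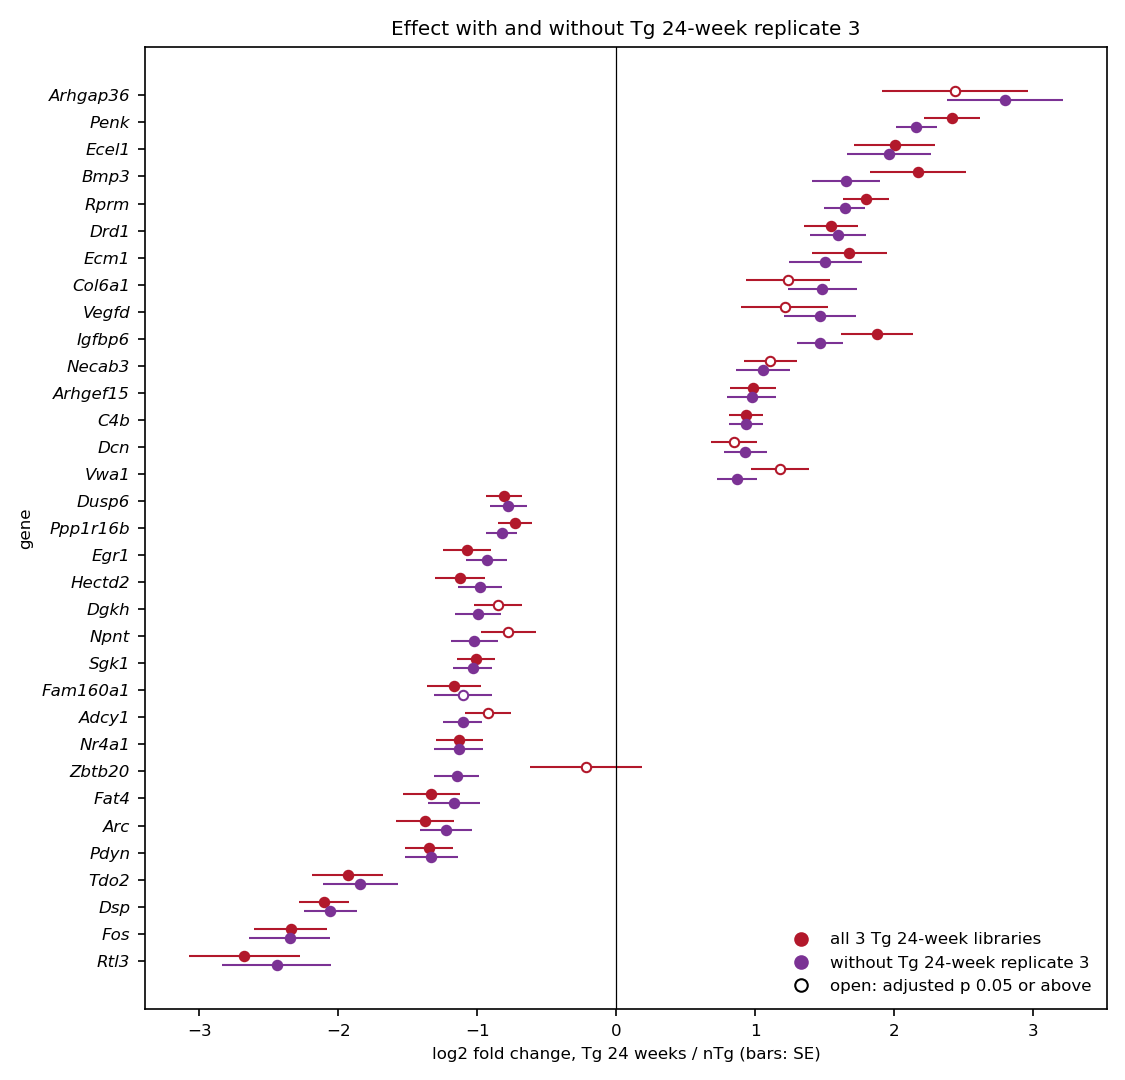
Log2 fold change with its SE in Tg at 24 weeks against nTg for the genes past the threshold in either fit that the naming rule took by size of change, with all 3 Tg 24-week libraries (red) and without replicate 3 (purple), open where the adjusted p was 0.05 or above. Genes taken from the fit without replicate 3 were chosen to have no overlap between its groups. Each gene plotted keeps its side of 0. Zbtb20 moves from −0.22 to −1.15, the largest shift among those plotted.

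Set against hAPP-J20 mice before plaques, Tg_24w differed in 6 of 17457 genes (0.0344%), 5 of them higher (0.0286%) and 1 of them lower (0.00573%). An unadjusted p below 0.05 was reached by 2645 genes. Penk (log2 difference 2.34, adjusted p = 0.000848), Rprm (1.32, adjusted p = 0.0164), C4b (0.84, adjusted p = 0.0489) and Dsp (−1.62, adjusted p = 0.00644) were also among the 23 genes that differed from nTg. Since the Tg_24w libraries are in both comparisons, these are not separate evidence. The others were Tmc6, of the transmembrane channel-like family, with 16.8, 10.3 and 20 CPM in Tg_24w, 5.33, 4.87 and 5.01 CPM in Tg_15w and 6.04, 5.32 and 7.29 CPM in nTg, and Rasl10a, a Ras-like GTPase, with 45.5, 53.2 and 50.5 CPM in Tg_24w, 22.5, 23.7 and 25.6 CPM in Tg_15w and 29.2, 32.4 and 23.8 CPM in nTg. Both overlap another gene, Tmc8 and Gas2l1. Without Tg_24w_3, 14 genes (0.0787%) differed from Tg_15w, 10 higher (0.0562%) and 4 lower (0.0225%). Leaving out Tg_15w_1, Tg_15w_2 or Tg_15w_3 left 1, 2 or 1 calls.

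For Fos, Arc and Dusp6 the Tg_15w mean lay between those of the other groups. Fos averaged 3.01 ± 0.13 CPM in Tg_24w, 6.26 ± 2.08 CPM in Tg_15w and 15.3 ± 3.07 CPM in nTg (SD, n = 3 each). Arc averaged 32.9 ± 7.0 CPM in Tg_24w, 45.0 ± 1.84 CPM in Tg_15w and 85.7 ± 23.8 CPM in nTg, and Dusp6 averaged 23.2 ± 1.08 CPM in Tg_24w, 28.1 ± 2.71 CPM in Tg_15w and 40.7 ± 2.73 CPM in nTg. None of the 3 passed the threshold against Tg_15w, so a further decrease between the ages is not shown, nor its absence.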

How the data were processed

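RNA libraries of mouse hippocampus were made with the RareRNA kit (Genepure) and the KAPA mRNA HyperPrep kit (Roche), per the labels' protocols. The submitters' processing notes list, in no order, DESeq2 1.26.0, featureCounts 2.0.0, HISAT2 2.1.0, Trimmomatic 0.38, CASAVA and build GRCm38, while annotation and strand setting were not given in the sources used here. The authors deposited whole-number counts per gene for each library, which every test used. The TPM values deposited by the authors served only to compare levels between genes. Genes without a symbol held 1.88% of counts.

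Counts of all 9 libraries were fitted with edgeR 4.0.16 in R 4.3.3 (glmQLFit, glmQLFTest, TMM, filterByExpr), with 3 groups (Tg_24w, Tg_15w, nTg), two-sided, with Benjamini-Hochberg adjustment over 17457 genes and a threshold of 0.05. SE is the absolute log2 fold change over the square root of F. Tests without Tg_24w_3 repeat the filter. Coordinates are GENCODE M21 on GRCm38, 1-based; all 55536 identifiers matched. No per-sample column was left unmapped and no libraries were identical (chi-square per degree of freedom 9.11 to 80.7). Alternatives were RLE factors, DESeq2 1.42.0, limma 3.58.1 voom with quality weights, no filter, fewer libraries, a replicate block and leaving out each library; an offset for exon length and GC content, leaving out Tg_15w libraries and a 4-group fit were chosen after seeing the data.

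The comparison and the 43 gene lists (676 genes, 26 described) were chosen with earlier results of these data known. Named genes were App, Zbtb20, called genes of at least 1 CPM by size of change (15 each way, with and without Tg_24w_3; 5 each way against Tg_15w) and up to 6 members of smallest p in either fit from each list. Counts were also simulated from each gene's mean and fitted spread, with no outlying library, length trend or mix of ages (17142 genes). There the Tg_24w against nTg fit called 62% of genes changed by 1 and 96% of those changed by 2 on the log2 scale. Of its calls, 6.5% were unchanged genes. Without Tg_24w_3 the shares called were 46% and 83%. Only genes of at least 1 CPM were changed, and these shares need not hold for the measured libraries.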

Additional observations from a re-analysis of the deposited data

Results flagged for a closer look

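The change from 15 to 24 weeks in hAPP-J20 mice was tested as the difference between Tg_24w and Tg_15w, each also set against the same nTg libraries, and 6 genes passed (edgeR, Benjamini-Hochberg adjusted). The log2 difference was 2.34 for Penk (adjusted p = 0.000848), 1.62 for Tmc6 (adjusted p = 0.0489), 1.32 for Rprm (adjusted p = 0.0164), 1.05 for Rasl10a (adjusted p = 0.0374), 0.84 for C4b (adjusted p = 0.0489) and −1.62 for Dsp (adjusted p = 0.00644). All 6 were past the threshold in the same direction without Tg_24w_3. Batch equals age in the labels, so the 2 cannot be told apart here.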

How the results depend on the processing

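The 23 genes called between Tg_24w and nTg kept their direction under all 19 alternatives. This is no separate evidence, because none of the 23 overlapped between groups. Fits that leave out libraries could therefore hardly turn a direction, and every alternative reused the same counts. The count was 27 with RLE factors, 198 with DESeq2, 238 with voom, 559 without the filter (523 of them at 1 CPM or more), 5 with the 6 libraries alone, 0 with 24-week libraries alone (670 at an unadjusted p under 0.05), 107 with Tg_24w_3 and nTg_24w_1 left out, 32 with the offset and 17 in the 4-group fit within 24 weeks without Tg_24w_3. Leaving out 1 library of the comparison gave 4 to 36, and leaving out 1 Tg_15w library 12 to 13. DESeq2 and voom each called all 23. DESeq2 also called genes described above as not past the threshold, among them Prox1 (adjusted p = 0.000558), Adipor2 (adjusted p = 0.0123) and Irs2 (adjusted p = 0.0252). It did not call Insr (adjusted p = 0.0564). Whether such genes pass thus depends on the test.

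Against Tg_15w, with 6 calls, the count was 5 with RLE, 262 with DESeq2, 102 with voom, 701 without the filter, 1 with those 6 libraries alone, 2 with the offset, and 1 to 14 with 1 library left out.

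Same-numbered Tg_24w and nTg libraries correlated at 0.124, 0.0236 and 0.290 in their deviations, and replicate 2 differs in age, so the numbers do not pair them. A replicate block gave 15 calls against nTg and 4 against Tg_15w, and Tg_24w_2 correlated better with nTg_24w_1 (0.258) than with its own number.

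App changed sign from −0.06 to 0.003 (voom), 0.0068 (24 weeks only), 0.17 (without Tg_24w_3), 0.04 (without nTg_15w_2), 0.0069 (without nTg_24w_3), 0.007 (without Tg_24w_3 and nTg_24w_1), 0.13 (offset) and 0.27 (4-group fit), and ranged from −0.24 to 0.17 with 1 library left out. Zbtb20 changed from −0.22 to 0.0587 without Tg_24w_1 and 0.0426 without Tg_24w_2, and to −1.15 without Tg_24w_3. The causes were not tested. At 12733452 counts in Tg_24w_3, 1 CPM stands for about 12.73 counts, so genes near 1 CPM rest on few reads.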

Other observations

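Without Tg_24w_3, genes that differed from Tg_15w and not with it included C1ql2, at 1.30 on the log2 scale (adjusted p = 0.00215), and Adcy1, at −0.94 (adjusted p = 0.0201). S100a6, a calcium-binding protein, Id3, an inhibitor of helix-loop-helix factors, and Klhdc8b, a kelch-domain gene, were at 1.15, 0.79 and 0.86 (adjusted p = 0.0496, 0.0496 and 0.0480). These 3 were chosen after their values were seen.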
